A study of Mus musculus with 12 samples.

Results

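The 4 transcripts that lie close together in the deposited tables, uc007pap.2, uc007pau.2, uc007pbc.2 and uc011ysu.1, were low in wild-type mouse cells and several times higher in cells labelled as heterozygous or knockout for Chd8. They were chosen by these measured levels, as 4 of 55419 transcripts that were low in both wild-type groups and many-fold higher in every mutant group, so the comparison with wild type is given as a description with no test. RNA had been sequenced from mouse embryonic stem cells (ESC) grown in 2i, a medium whose inhibitors hold the cells in naive pluripotency, and from differentiated neural progenitor cells (NPC). Both cell types were wild type (WT), heterozygous (HET, labelled CHD8_HET) or knockout (KO, labelled CHD8_KO) for Chd8, with 2 libraries in each of 6 groups and 12 libraries in all. How many cell lines carry each genotype, and whether both libraries of a group were grown apart, is not in the labels. Every p-value below therefore reflects variation among libraries, part or all of which can be technical.

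CHD8 is an ATP-dependent chromatin remodeller of the CHD helicase family, and mutations in it are associated with autism. Embryonic stem cells can become every cell type of the body, while neural progenitors are restricted to neurons and glia. A gene that is silent in one state of chromatin can be read in another, and neighbouring transcripts of a locus are often read or silenced together. The files pair no transcript with a gene name, and 0 of the identifiers were found in the tables of gene names. What the 4 transcripts encode, the level of Chd8 itself and the markers of the cell types were therefore not analysed here, and no sequence is printed.

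A library held between 9062447 and 14766212 estimated counts. In ESC the WT libraries were the shallowest (9062447 and 9840544) and the KO libraries the deepest, whereas WT had the deepest libraries among NPC (12392099 and 13150215). Levels are given as estimated counts, as CPM (counts relative to library size after TMM scaling) and as the deposited TPM (relative abundance corrected for transcript length). These are bulk samples, in which a smaller number of cells using a transcript and less of it in each cell cannot be told apart. Of the 12 estimated counts of each of the 4 transcripts, 0 were whole numbers (within 0.001), so each shared reads with other transcripts in every library, and their single values are less certain than those of the group of rows.

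The first of the 4 in the files, uc007pap.2, is 1503 bases long. Its estimated counts in ESC were 11.4 and 23.8 in WT, 223 and 242 in HET, and 346 and 319 in KO. In NPC they were 60.6 and 85.5 in WT, 313 and 286 in HET, and 201 and 294 in KO. As CPM the same ESC libraries stood at 1.30 and 2.48 in WT, 19.2 and 20.3 in HET, and 26.6 and 27.7 in KO, and the NPC libraries at 4.27 and 5.68, 29.5 and 25.9, and 20.05 and 25.5. All 8 mutant libraries lay above all 4 WT libraries, the lowest mutant library being 3.38 times the highest WT library in CPM. In TPM the ESC libraries had 1.23 and 2.62 in WT, 17.9 and 19.7 in HET, and 26.4 and 22.1 in KO. The NPC libraries had 6.04 and 7.86 TPM in WT, 36.3 and 35.5 in HET, and 25.1 and 30.9 in KO. The WT NPC libraries were above both WT ESC libraries on each scale.

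The longest of the 4, uc007pau.2, spans 11416 bases. In ESC it had estimated counts of 37.2 and 49.8 in WT, 262 and 322 in HET, and 654 and 649 in KO. In NPC it had 75.8 and 101 in WT, 541 and 411 in HET, and 568 and 748 in KO. The CPM values were 4.39 and 5.17, 22.5 and 27.0, and 50.3 and 56.4 in WT, HET and KO ESC, and 5.31 and 6.74, 50.9 and 37.2, and 56.7 and 64.9 in the same genotypes of NPC. KO libraries lay above HET libraries in both cell types, and HET libraries above WT. Because of its length its TPM values were the lowest of the 4 in the mutants. They were 0.472 and 0.647 in WT ESC, 2.48 and 3.11 in HET ESC, and 5.88 and 5.32 in KO ESC. In NPC they were 0.895 and 1.09 in WT, 7.45 and 6.05 in HET, and 8.34 and 9.25 in KO.

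The third, uc007pbc.2, is 3579 bases long and had the widest range in fold terms, its highest library against its lowest. Its ESC estimated counts were 22.4 and 10.3 in WT, 195 and 338 in HET, and 722 and 837 in KO. In NPC they were 35.3 and 60.9 in WT, 406 and 346 in HET, and 414 and 525 in KO. In CPM it went from 2.61 and 1.03 in WT ESC to 16.8 and 28.3 in HET ESC and to 55.5 and 72.8 in KO ESC. The NPC values were 2.45 and 4.07 in WT, 38.2 and 31.3 in HET, and 41.3 and 45.6 in KO. The WT ESC libraries differed more than 2-fold from each other, on counts this low. Its TPM in ESC was 0.941 and 0.440 in WT, 6.10 and 10.8 in HET, and 21.5 and 22.7 in KO. In NPC its TPM was 1.38 and 2.19 in WT, 18.4 and 16.8 in HET, and 20.1 and 21.4 in KO.

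The last, uc011ysu.1, is 2644 bases long and had the highest mean level, 45.2 CPM over the 12 libraries. Its estimated counts in ESC were 51.5 and 79.8 in WT, 792 and 678 in HET, and 1292 and 1201 in KO. In NPC they were 117 and 89.2 in WT, 544 and 533 in HET, and 376 and 563 in KO. The CPM values were 6.05 and 8.27 in WT ESC, 68.0 and 56.8 in HET ESC, and 99.4 and 104 in KO ESC. In NPC they were 8.18 and 5.94 in WT, 51.2 and 48.2 in HET, and 37.5 and 48.9 in KO. KO ESC stood apart above every other group. HET and KO NPC overlapped in CPM but not in TPM, where both HET libraries lay above both KO libraries. In TPM the ESC libraries had 2.97 and 4.72 in WT, 34.2 and 29.8 in HET, and 52.9 and 44.8 in KO. The NPC libraries had 6.29 and 4.41 TPM in WT, 33.98 and 35.7 in HET, and 25.2 and 31.7 in KO.

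**Figure D1:**
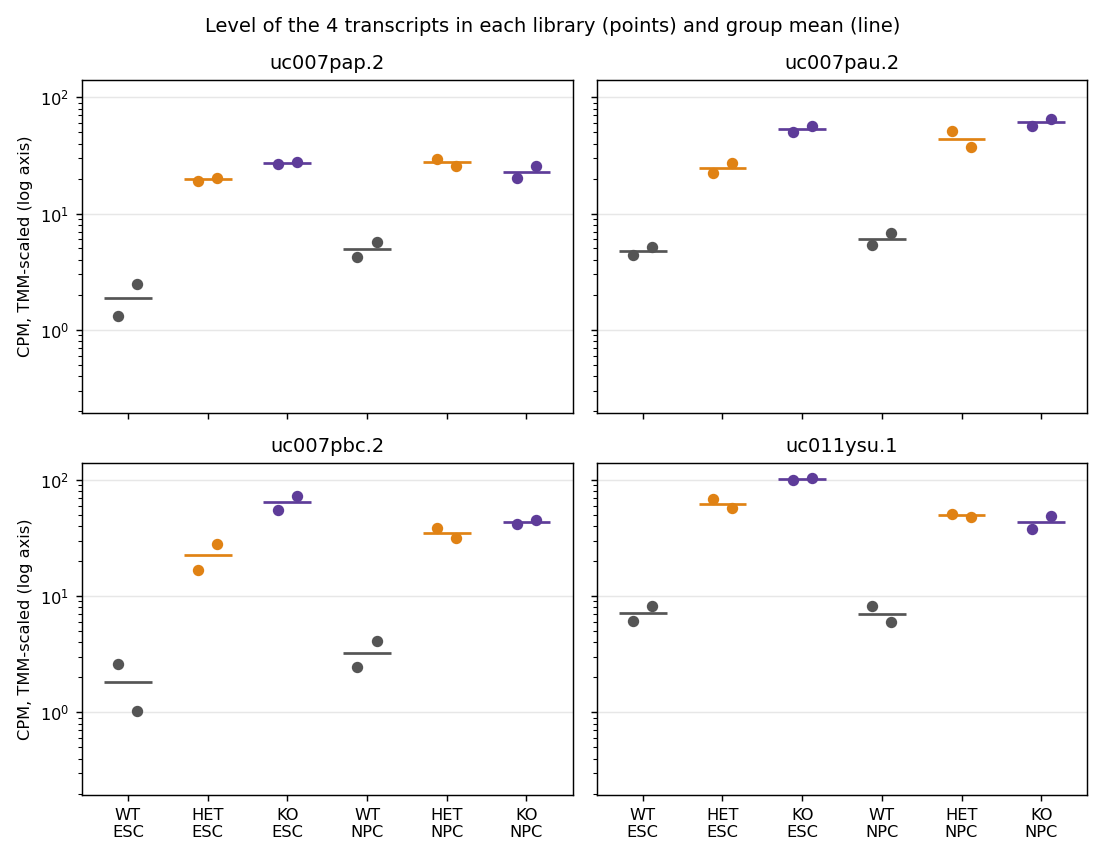
CPM after TMM scaling (log axis) of each of the 4 transcripts in the 6 groups, with a point per library and a line at the mean of 2 libraries. In each panel the 8 mutant libraries lie above the 4 WT libraries, and in ESC the KO libraries lie above the HET libraries.

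Set against WT, the smallest of the 16 ratios was that of uc007pap.2 in KO NPC, at 4.58-fold (log2 2.19, SE 0.285), and the largest that of uc007pbc.2 in KO ESC, at 35.5-fold (log2 5.15, SE 0.485). In HET ESC the 4 stood at 10.3-fold (uc007pap.2), 5.16-fold (uc007pau.2), 12.5-fold (uc007pbc.2) and 8.69-fold (uc011ysu.1). In KO ESC the first, the second and the last stood at 14.2, 11.1 and 14.2-fold. In HET NPC the ratios were 5.56, 7.29, 10.6 and 7.04 in the same order, and in KO NPC the last 3 were 10.1, 13.3 and 6.11. These contrasts served to choose the transcripts, so nothing is read from their size. HET and KO were compared with the same WT libraries. By the same rule of fold, 5.87% of the 30021 transcripts tested were at least 4-fold higher in HET ESC and 6.98% in KO ESC, and the shares in NPC were 4.54% for HET and 4.61% for KO.

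On the per-length scale of TPM, the order of the 4 differed between the cell types in part. In ESC, uc011ysu.1 was the highest in each genotype (48.9 ± 5.75 TPM in KO, SD, n = 2), followed by uc007pap.2 (24.2 ± 2.98 in KO), uc007pbc.2 (22.1 ± 0.849 in KO) and uc007pau.2 (5.60 ± 0.397 in KO). The libraries of uc007pap.2 and uc007pbc.2 overlapped in KO ESC, as did those of uc007pbc.2 and uc007pau.2 in WT ESC. In NPC, uc007pap.2 and uc011ysu.1 could not be parted in any genotype (35.9 ± 0.542 and 34.8 ± 1.20 TPM in HET), and uc007pbc.2 and uc007pau.2 followed without overlap. The highest of the 4 was 11.4 times the lowest in HET ESC and 3.24 times the lowest in KO NPC.

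The comparison of KO with HET was not among those that chose the transcripts, though high levels in both mutants were asked for. It asks whether their level differs between cells labelled KO and HET. With the number of lines per genotype unknown, loss of the second copy cannot be told apart from differences between lines. In ESC all 4 were higher in KO than in HET, and in each case both KO libraries lay above both HET libraries. All 4 were measured in the same libraries and shared reads with other transcripts. Counts out of 4, here and below, are therefore not counts of separate observations. The log2 difference was 1.51 for uc007pbc.2 (95% interval 0.60 to 2.41), 1.11 for uc007pau.2 (0.64 to 1.58), 0.71 for uc011ysu.1 (0.23 to 1.18) and 0.46 for uc007pap.2 (-0.16 to 1.08). After Benjamini-Hochberg adjustment over all 30021 transcripts none passed 0.05 by the edgeR quasi-likelihood test (adjusted p = 0.259, 0.136, 0.327 and 0.667 in that order), in a comparison where 0.00333% of transcripts were called. At an unadjusted p under 0.05 the count was 3 of 4, against 9.3% of all transcripts. DESeq2 called the same 3 (uc007pau.2, uc007pbc.2 and uc011ysu.1) after adjustment, where it called 4.65% of all transcripts with an adjusted p, and limma on log2(TPM + 1) called 0 (0.00999%). HET ESC stood at 35.1% of the KO level in CPM for uc007pbc.2, 46.4% for uc007pau.2, 61.3% for uc011ysu.1 and 72.6% for uc007pap.2.

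In NPC the 4 did not share a direction between HET and KO. The log2 difference of KO from HET was 0.46 for uc007pau.2 (95% interval 0.00 to 0.93) and 0.32 for uc007pbc.2 (-0.57 to 1.21), and it was -0.20 for uc011ysu.1 (-0.68 to 0.28) and -0.28 for uc007pap.2 (-0.90 to 0.34). None passed (edgeR adjusted p = 0.673, 0.965, 0.941 and 0.924), where 0.00666% of all transcripts were called, and 1 of 4 had an unadjusted p under 0.05, against 7.38% of all transcripts. DESeq2 and limma each called 0 of 4 (2.97% and 0.02% of all transcripts). HET NPC stood at 72.5% of KO for uc007pau.2, 80.0% for uc007pbc.2, 115% for uc011ysu.1 and 121% for uc007pap.2. The intervals allow a KO level of uc007pbc.2 between 0.675 and 2.31 times that of HET NPC.

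Whether the step from HET to KO differed between the cell types was tested as an interaction. The estimate was below 0 for all 4, that is, the step was smaller in NPC, at -0.91 for uc011ysu.1 (95% interval -1.59 to -0.23), -1.19 for uc007pbc.2 (-2.45 to 0.07), -0.74 for uc007pap.2 (-1.62 to 0.13) and -0.64 for uc007pau.2 (-1.30 to 0.01). None passed after adjustment (edgeR adjusted p = 0.799 to 0.916), where 0% of transcripts were called. At an unadjusted p under 0.05 the count was 1 of 4 by edgeR, 4 of 4 by DESeq2 and 2 of 4 by limma, against 5.53%, 8.64% and 5.44% of all transcripts. After adjustment DESeq2 and limma called 0 of 4 (1.21% and 0% of all transcripts).

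Between ESC and NPC, 1 of the 4 passed the test in each genotype, uc007pap.2 in WT, uc007pau.2 in HET and uc011ysu.1 in KO. The change in mutants was not tested against that in WT. The choice asked for low levels in both WT groups and high levels in every mutant group, so these comparisons are not independent of it. In WT, uc007pap.2 had 1.89 ± 0.832 CPM in ESC and rose to 4.97 ± 0.997 in NPC (SD, n = 2), by a log2 change of 1.38 (SE 0.30, edgeR adjusted p = 0.0227), where 12.2% of all transcripts were called. The other 3 stood at log2 changes of 0.86 (uc007pbc.2), 0.33 (uc007pau.2) and -0.02 (uc011ysu.1) and did not pass. The call ended without WT ESC replicate 1 (log2 1.01, adjusted p = 0.0771) and without WT NPC replicate 2 (1.17, adjusted p = 0.121). Over all alternatives its adjusted p ran from 0.000327 to 0.222.

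In HET cells, uc007pau.2 had 24.7 ± 3.16 CPM in ESC and rose to 44.1 ± 9.74 in NPC (SD, n = 2), by a log2 change of 0.83 (SE 0.20, edgeR adjusted p = 0.0345), with 11.5% of all transcripts called. The log2 changes of the others were 0.62 for uc007pbc.2, 0.49 for uc007pap.2 and -0.33 for uc011ysu.1. The call ended without HET ESC replicate 1 (log2 0.70), HET ESC replicate 2 (0.96), HET NPC replicate 1 (0.59), either KO ESC library (0.83 each) or either KO NPC library (0.84 each), at an edgeR adjusted p of 0.0551 to 0.19. On the TPM scale limma called 3 of the 4 higher in HET NPC (uc007pap.2, uc007pau.2 and uc007pbc.2), where it called 14.4% of all transcripts higher.

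In KO cells, uc011ysu.1 fell from 102 ± 3.55 CPM in ESC to 43.2 ± 8.04 in NPC (SD, n = 2), a log2 change of -1.24 (SE 0.21, edgeR adjusted p = 0.00769), with 13% of all transcripts called. It was also lower in NPC on the TPM scale (28.5 ± 4.62 against 48.9 ± 5.75 TPM, SD, n = 2). The other 3 stood at -0.56 (uc007pbc.2), -0.25 (uc007pap.2) and 0.19 (uc007pau.2). Without KO NPC replicate 1 the change of uc011ysu.1 was -1.03 and missed the threshold (adjusted p = 0.0691), the highest value over its alternatives, of which the lowest was 7.35e-09. Within the 8 mutant libraries the 4 were less alike. Log2 CPM of uc007pau.2 and uc007pbc.2 correlated at r = 0.857, and that of uc007pau.2 and uc011ysu.1 at r = -0.036. Over all 12 libraries every pair correlated at 0.913 to 0.974, which is set largely by the step from WT to mutant that chose them.

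**Figure D2:**
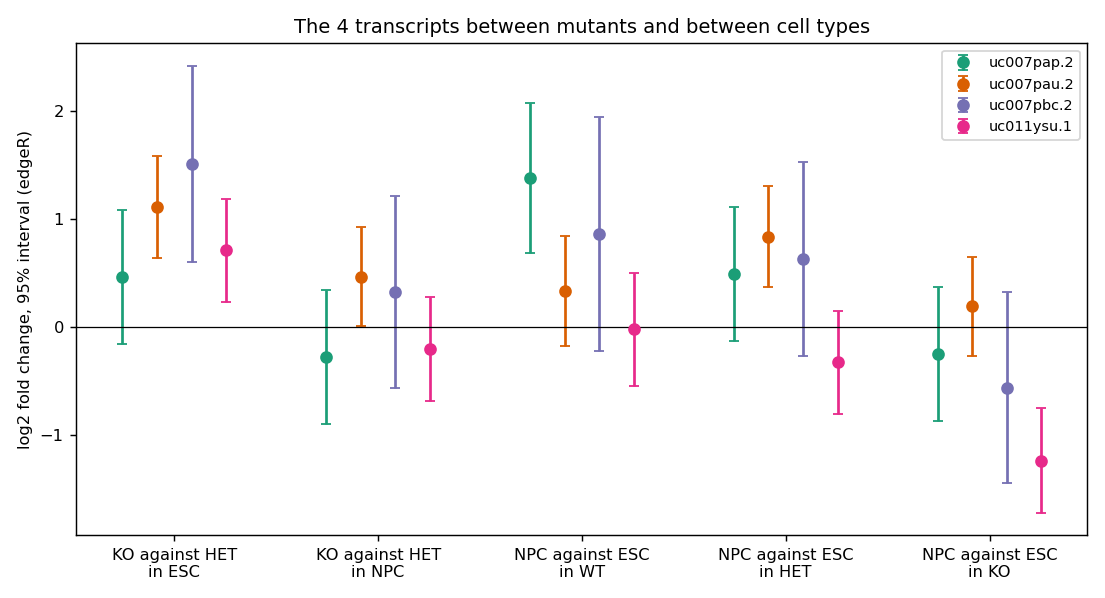
Log2 fold change of each of the 4 transcripts in 5 comparisons other than those with WT that chose them. The bars are 95% intervals from the edgeR fit over 12 libraries. All 4 points are above 0 for KO against HET in ESC, uc011ysu.1 is the lowest point in each comparison of NPC with ESC, and its value in KO cells (-1.24) is the farthest below 0.

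The 4 transcripts lie within 32 consecutive file rows. From uc007pap.2 to uc007pau.2 is 5 rows, from there to uc007pbc.2 is 18 rows, and from there to uc011ysu.1 is 8 rows, so that 28 other rows lie between the first and the last. What orders the rows is not stated in the files, and no distance in bases is known. Of the 28 rows between, 16 are short transcripts of 62 to 120 bases, and 12 are longer. Of these, 9 had enough counts to be tested, all of them longer ones.

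Summed over all 28 rows between, whether tested or not, CPM was 8.43 ± 0.354 in WT ESC, 65.0 ± 0.835 in HET ESC and 118 ± 12.1 in KO ESC (SD, n = 2). In NPC the sum was 9.64 ± 3.74 in WT, 66.1 ± 13.1 in HET and 70.01 ± 15.8 in KO. Mutant libraries thus lay above WT libraries in the sum, with KO ESC the highest group. Of the 12 longer rows, the mean CPM was higher than in WT for 10 in HET ESC and for 10 in KO ESC, with 2 equal, for 9 in HET NPC, with 2 lower, and for 10 in KO NPC, with 1 lower. A row of 6357 bases and 16 rows after uc007pap.2, was not tested and had 21 counts in WT NPC replicate 2 and at most 5.52 in any mutant library. In 6 of the 28 rows every mutant library lay above every WT library, as in 0.773% of all tested transcripts. A row could pass the low-count filter through its mutant libraries alone, and 4 of the 9 tested rows had under 10 counts in every WT library, so the number tested is itself tied to the mutant level.

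Of the 9 tested rows between, edgeR called 5 higher in KO ESC (0.716% of all tested transcripts were called higher) and 2 in KO NPC (0.0766%). It called 1 in HET NPC (0.00999%) and 0 in HET ESC (0.02%). In HET ESC 10 of the 15 tested rows between and beside had a higher level at an unadjusted edgeR p under 0.05 (4.85% of all transcripts). The called rows 2 and 19 rows after uc007pap.2 had at most 12.9 and 4 counts in any WT library. Such rows could be tested through their mutant libraries alone, so their calls are tied to the mutant level. By edgeR 0 of the 15 fell, at an unadjusted p under 0.05 either, where 0.0133% and 0.49% of all transcripts were called lower in HET and KO ESC and 0% and 0.137% in HET and KO NPC. Limma had 1 lower at an unadjusted p in KO NPC. DESeq2 called 5 and 9 of the 15 higher in HET and KO ESC, where it called 2.31% and 5.85% of all transcripts with an adjusted p higher, and 8 and 9 in HET and KO NPC (1.98% and 4.34%). Limma called 1 and 6 in ESC (0.0366% and 0.366%) and 4 and 5 in NPC (0.05% and 0.403%), and neither tool called one lower after adjustment. The rows that edgeR called, apart from the one 19 rows after uc007pap.2, had no whole-number estimated count in any library. They thus shared reads with other transcripts. Whether these were the chosen transcripts was not tested, so the calls may not be separate from the levels that chose them.

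The edgeR counts changed when single libraries were left out, including libraries of groups that were not compared. Every fit without 1 library called fewer than the 5 in KO ESC, and each such fit left a single library in 1 group. The 2 in KO NPC became 1 without either WT ESC or either HET NPC library and 0 without any of the other libraries. The 1 in HET NPC became 0 without either HET ESC, KO ESC, WT NPC, HET NPC or KO NPC library.

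The pair of rows just before uc011ysu.1 carried every call in NPC and 2 of those in KO ESC. The row 29 after uc007pap.2, of 3476 bases, had 1.90 and 2.17 CPM in WT ESC, 7.73 and 8.38 in HET ESC and 15.6 and 13.6 in KO ESC. In NPC it had 1.26 and 1.54 in WT, 10.3 and 9.32 in HET and 11.1 and 10.3 in KO. It was called in KO ESC (log2 2.84, edgeR adjusted p = 0.0117), HET NPC (2.80, 0.0297) and KO NPC (2.93, 0.0152). The next row, of 1477 bases, had 4.27 and 3.41 CPM in WT ESC, 26.6 and 30.8 in HET ESC and 44.3 and 59.3 in KO ESC, and in NPC 1.82 and 3.94, 24.96 and 17.7, and 20.1 and 31.5. It was called in KO ESC (log2 3.75, edgeR adjusted p = 0.0179) and KO NPC (3.16, 0.042). Both had their highest libraries in KO ESC, as uc007pbc.2 and uc011ysu.1 did, and no overlap between mutant and WT libraries.

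Of the 10 rows before uc007pap.2, 5 were tested. In 2 of them every mutant library lay above every WT library, as in 0.773% of all tested transcripts. The row directly before it, of 4339 bases, had no counts in either WT ESC library and 3.85 and 6.54 CPM in WT NPC. Its mutant libraries had 0.344 and 0.168 CPM in HET ESC, 0 and 0.869 in KO ESC, 4.05 and 2.89 in HET NPC, and 0 and 2.78 in KO NPC. Its highest library was thus a WT NPC one, and mutant and WT libraries overlapped in NPC. The row 9 before uc007pap.2, of 2831 bases, was the nearest earlier row with at least 10 CPM in WT of both cell types. It had 21.9 ± 6.74 CPM in WT ESC, 37.1 ± 2.75 in HET ESC and 38.2 ± 3.80 in KO ESC, and 24.1 ± 3.71, 44.2 ± 9.05 and 48.9 ± 0.657 in NPC (SD, n = 2). Its log2 fold changes were 0.76 to 1.02 and did not pass (edgeR adjusted p = 0.127 to 0.397). None of the 5 was called in any of the 4 comparisons with WT.

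The first row after uc011ysu.1 with at least 10 CPM in WT of both cell types lay 45 rows on. It is 2242 bases long and had 108 ± 18.7 CPM in WT ESC, 134 ± 24.9 in HET ESC and 136 ± 4.50 in KO ESC, and 73.3 ± 6.69, 84.0 ± 3.04 and 97.9 ± 19.7 in NPC (SD, n = 2). Its log2 fold changes of 0.20 to 0.42 did not pass (edgeR adjusted p = 0.423 to 0.933). The first 10 tested rows before uc007pap.2, and the first 10 from this abundant row on, had median log2 fold changes of 0.70 to 1.11 before and 0.51 to 0.95 after over the 4 comparisons. Counted in either direction, 1 of the 10 before was called in KO ESC. Of the 10 after, 2 were called in KO ESC and 1 in KO NPC. Of all transcripts, 0.716% were called higher and 0.49% lower in KO ESC, and 0.0766% and 0.137% in KO NPC.

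**Figure D3:**
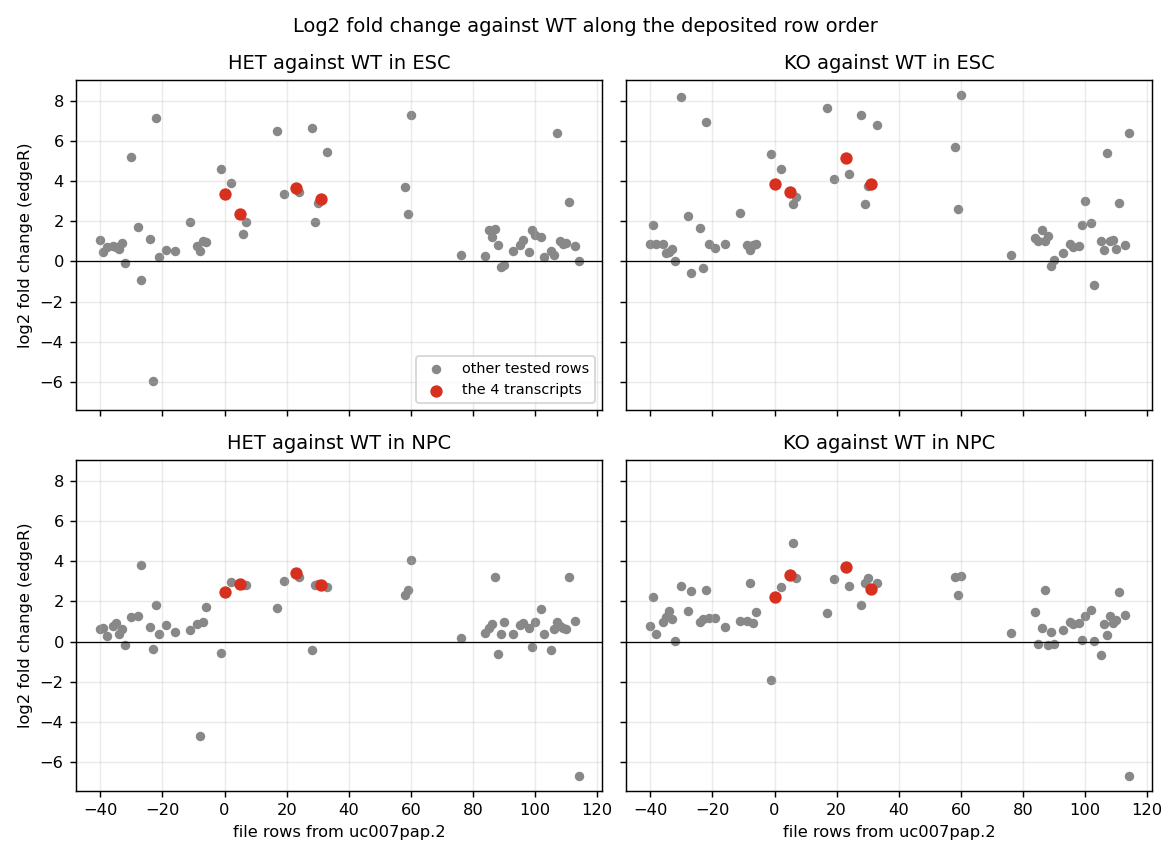
Log2 fold change against WT (edgeR) of each tested row, by its distance in file rows from uc007pap.2, for the 4 comparisons. The 4 transcripts lie between 2.19 and 5.15, and the 3 rows at 58 to 60 are above 2 in every panel. Most rows outside the run lie closer to 0, but above it. The points above 6 or below -4 are rows with no counts in both libraries of a group compared.

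From uc007pap.2 to the row before that abundant one there were 76 rows, a run whose ends were set after its values had been seen. It held the 4 transcripts, 16 other rows of more than 150 bases and 56 short rows of 30 to 121 bases. Sets of transcript models often list the precursors of small RNAs as short entries of their own, and the files do not say whether these rows are of that kind. Summed over the run, CPM was 25.1 ± 1.26 in WT ESC, 203 ± 2.50 in HET ESC and 383 ± 35.0 in KO ESC (SD, n = 2), and 32.2 ± 5.38, 231 ± 33.9 and 249 ± 36.9 in NPC. The sum does not depend on how reads are shared among rows of the run. Its ratio to WT was 8.08 for HET and 15.3 for KO in ESC, and 7.18 for HET and 7.75 for KO in NPC. The 4 transcripts held 59.9% to 71.0% of the counts of the run in each of the 12 libraries, and the other longer rows together had similar ratios (7.63, 14.1, 6.87 and 7.20 times WT).

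The short rows were almost empty in WT. Over the 56 rows the WT ESC libraries had 1 count each and the WT NPC libraries 7 and 4, against 32 and 33 in HET ESC, 65 and 80 in KO ESC, 28 and 35 in HET NPC and 32 and 46 in KO NPC. Counts were thus lowest in WT in both cell types, although the WT NPC libraries were the deepest of NPC. Of the 56, 30 had no count in any WT library and at least 1 in a mutant library, 8 had a count in WT and 18 had none in any library. The share without a WT count but with a mutant count was 53.6%, against 4.4% of the 4163 rows of at most 150 bases in the whole file, a description of rows that were found beside the chosen ones. A single short row was tested, the one of 54 bases 33 rows after uc007pap.2, with no counts in WT ESC, 0.923 and 1.48 CPM in KO ESC, and no call. The 3 longer rows 58 to 60 after uc007pap.2, of 3796, 3867 and 3821 bases, had at most 12 counts in any WT library and from 9.37 to 92.7 in the mutant libraries, and none was called in any comparison with WT (edgeR adjusted p = 0.0806 at the lowest).

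**Figure D4:**
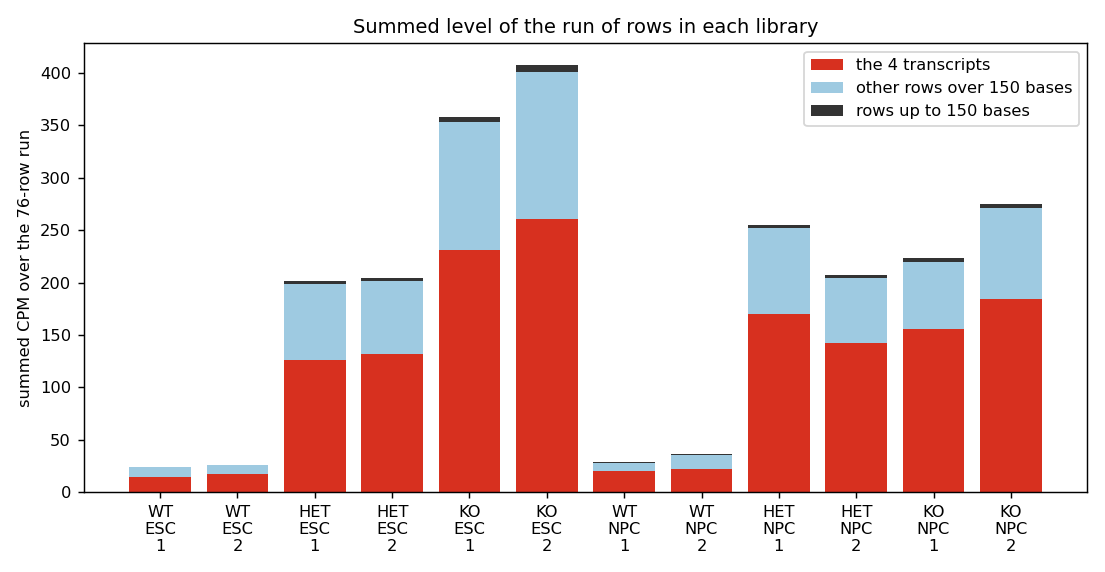
Summed CPM over the 76-row run in each library (bars from 0), divided into the 4 transcripts, the other rows of more than 150 bases and the short rows. WT bars reach 24.2 to 36.0, the KO ESC bars 358 and 408, and the other mutant bars lie between 201 and 275.

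The pattern below restates the values that chose the 4 and is given as a description. In 0.773% of tested transcripts every mutant library lay above every WT library in CPM. Mutant and WT libraries were apart in CPM, with fitted levels at least 4-fold higher in all 4 comparisons, for 22 of the 30021 tested transcripts (0.0733%). Of these, 4 were the transcripts themselves, 7 were other rows of the run, whose ends were set with these values known, and 11 lay elsewhere. With a mean of at least 10 CPM there were 6, the 4 transcripts and 2 other rows of the run, and the most abundant one outside the run had 9.04 CPM. The smallest log2 fold change over the 4 comparisons was 2.19 for uc007pap.2, 2.37 for uc007pau.2, 2.61 for uc011ysu.1 and 3.41 for uc007pbc.2. Rows of the run that were not chosen reached as far, with 2.88 for the row 30 after uc007pap.2 and 2.79 for the row 24 after it, so the 4 are not a class apart from their neighbours.

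**Figure D5:**
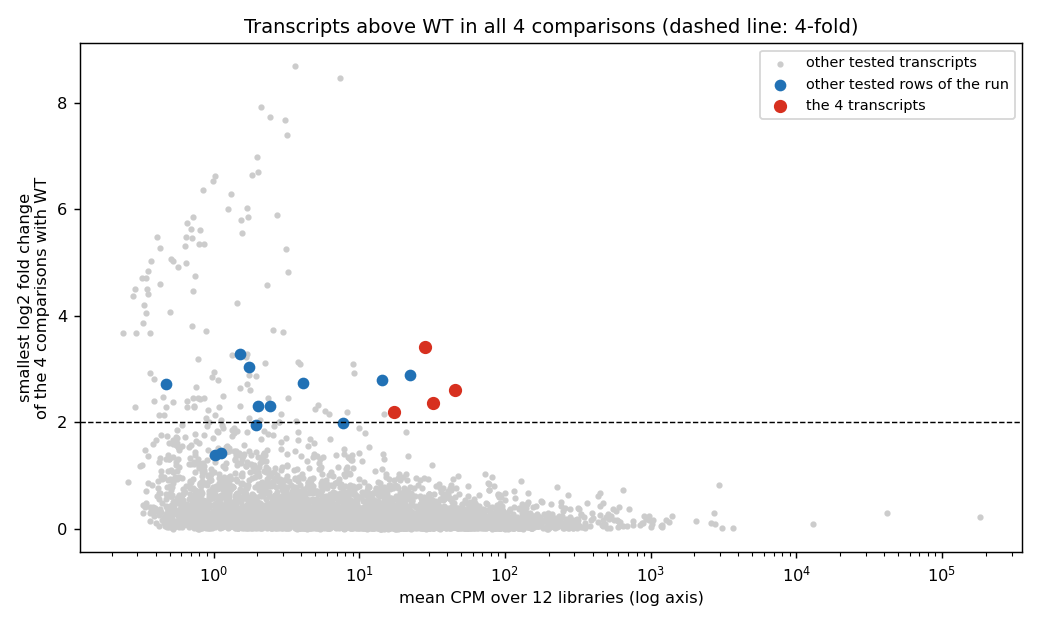
Smallest of the 4 log2 fold changes against WT by mean CPM over 12 libraries (log axis), for tested transcripts above WT in all 4 comparisons, with a dashed line at 4-fold. The 4 transcripts (mean 17.4 to 45.2 CPM) and 2 rows of the run lie above the line at 10 CPM or more, as does 1 of the other transcripts, whose libraries overlap.

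Likeness across the 12 libraries was measured as Pearson's r between log2 CPM and the mean log2 CPM of the 4, over 24294 other transcripts of at least 1 CPM. The libraries share genotype and depth, and the mean of the 4 holds the step from WT to mutant that chose them. A row with that step thus has a high r by the choice, so r is a description only. The highest values belonged to uc007par.2 (r = 0.983, 2 rows after uc007pap.2) and uc011ysp.1 (r = 0.981, the row after uc007pbc.2). Of the 10 highest 6 lay in the run, and of the 20 highest also 6. Mean CPM of uc011ysp.1 was 1.40, 15.5 and 29.1 in WT, HET and KO ESC and 2.30, 21.3 and 16.01 in NPC, which has the same order of genotypes as uc007pap.2 and uc011ysu.1. The lowest values belonged to uc007uoi.1 (r = -0.949) and uc007urk.2 (r = -0.948), which lie 4187 and 4282 rows away. Mean CPM of uc007urk.2 was 322, 106 and 99.3 in WT, HET and KO ESC and 199.6, 119.6 and 91.0 in NPC.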

How the data were processed

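Stranded libraries of total RNA depleted of ribosomal RNA were made with a SMARTer kit, per the labels' protocols. The submitters' processing notes name cutadapt 1.16, kallisto and mm9, a mouse genome build. No source names the transcript set. For 55419 transcripts per library the authors deposited a TPM value and an estimated count (an expected count, in which a read is shared among the transcripts it fits), beside transcript lengths, per the file headers. The deposited TPM values were used to compare levels between transcripts and in 1 alternative test.

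From these, 252 transcripts in 99 sets whose counts were equal to 2 decimals in every library (with at least 10 counts in all) were merged, and counts were rounded. With edgeR 4.0.16 in R 4.3.3, 30021 transcripts passed filterByExpr (minimum count 10), were TMM-scaled and entered 1 robust quasi-likelihood fit (glmQLFit) with a mean per group over 12 libraries. Tests were two-sided, with Benjamini-Hochberg adjustment over all 30021 and a threshold of 0.05. Standard errors are the log2 fold change over the root of the F statistic. The common dispersion was 0.35 with 6 residual degrees of freedom. The procedure was tested on simulated data. Replicates differed by more than counting noise in every group.

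The 4 transcripts (the members), the rows beside them and the lists were chosen with earlier results of these data known. Rows between the members and 10 on each side were compared with them and are named by their distance. The ends of the 76-row run, the limit of 150 bases for short rows and the 4-fold pattern were set after the values had been seen. Transcripts most like the 4 are the 2 highest and 2 lowest by r. The members were tested in comparisons of KO with HET and of NPC with ESC. Alternatives were DESeq2 1.42.0, limma 3.58.1 on log2(TPM + 1), DESeq2 size factors, no low-count filter, no merging, fits of the compared groups alone, a replicate block, 20 rows on each side and leaving out each library. Markers of cell types need gene names and were not analysed here.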

Additional observations from a re-analysis of the deposited data

How the results depend on the processing

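Size factors of DESeq2 in place of TMM, no merging and 20 rows on each side moved no count of calls by more than 1.5 times. Without the low-count filter, and with a replicate block, the rows called higher in HET NPC fell from 1 to 0, and with the block those in KO NPC fell from 2 to 0. The block changed no other count. Deviations of same-numbered libraries correlated at -0.051 to 0.062 over 15 pairs of groups. These values show no strong shared deviation, but they cannot show whether same-numbered libraries had a batch in common. In fits of the compared groups alone the members called in NPC against ESC fell from 1 to 0 in WT and in HET, and the neighbouring rows called higher fell to 0 in KO ESC, HET NPC and KO NPC. DESeq2 called 3 members in KO against HET in ESC (0 by edgeR) and 5, 9, 8 and 9 neighbouring rows in HET ESC, KO ESC, HET NPC and KO NPC. Limma called 3 members in NPC against ESC in HET and 1, 4 and 5 neighbouring rows in HET ESC, HET NPC and KO NPC. The cause of these differences was not tested. Over the fits without 1 library, the members called ranged from 0 to 1 in each of the 3 comparisons of NPC with ESC and stayed at 0 in KO against HET, and neighbouring rows called higher ranged from 0 to 4 in KO ESC, 0 to 1 in HET NPC and 0 to 1 in KO NPC. With WT counts of 10.3 to 117, the ratios to WT are limited by the low counts of the 4 transcripts in WT. The WT libraries were the shallowest in ESC but the deepest in NPC.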
